A study of Homo sapiens with 4 samples.

Results

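The E2F and DP transcription factors were examined in SUM159, an established triple-negative breast cancer cell line, by RNA sequencing in 4 conditions with 1 library each. The 10 genes were taken by name: E2F1 to E2F8 and the dimer partners TFDP1 and TFDP2. All 10 were found among the 60279 genes listed, and all 10 were among the 14269 genes that passed a filter of 1 CPM on average (CPM, the usual unit for the reads in a gene scaled to the reads in all genes of its library). The cells were left untreated or were given palbociclib (an inhibitor of the kinases CDK4 and CDK6), indisulam (a sulfonamide that causes degradation of the splicing factor RBM39) or the combination of both. Doses and duration differ between sources. In the library labels the treatment is 10 days with 0.5 µM palbociclib, 2 µM indisulam or both. In the series text it is 16 h with 2 µM palbociclib, 3 µM indisulam or both, and technical duplicates are mentioned there. The study reports the first setting for SUM159 RNA sequencing read with senescence gene sets, and the second for its splicing experiment. That experiment was aligned with Hisat2, whereas the processing notes of these libraries name TopHat2. No batch was named, so a batch and a condition cannot be told apart. It is not given whether each library pools such duplicates.

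E2F factors bind promoters of cell cycle genes, most of them as a dimer with a DP protein. In resting cells the retinoblastoma family (the pocket proteins RB1, RBL1 and RBL2) holds E2Fs in a repressive state, and cyclin D with CDK4 or CDK6, followed by cyclin E with CDK2, phosphorylates the pocket proteins and frees the E2Fs. E2F1, E2F2 and E2F3 are known as activators, E2F4 and E2F5 as repressors that act with pocket proteins, and E2F6 as a repressor that lacks the pocket protein binding region. E2F7 and E2F8 are the atypical members, which have a pair of DNA-binding domains, bind without DP and repress E2F target genes, several E2F genes among them. The question put to the data was how transcripts of the activators stood against those of the repressors and atypical members when CDK4 and CDK6 were inhibited.

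The genes lie on different chromosomes (GRCh38, GENCODE release 44). On the forward strand are E2F3 (ENSG00000112242) on chromosome 6 from 20401879 to 20493714, E2F4 (ENSG00000205250) on chromosome 16 from 67192155 to 67198918, and TFDP1 (ENSG00000198176) on chromosome 13 from 113584721 to 113641473. E2F5 (ENSG00000133740), also forward, is on chromosome 8 from 85177154 to 85217158. On the reverse strand are E2F1 (ENSG00000101412) on chromosome 20 from 33675477 to 33686385 and E2F2 (ENSG00000007968) on chromosome 1 from 23506438 to 23531233. E2F6 (ENSG00000169016) is on chromosome 2 from 11444375 to 11466177, and E2F7 (ENSG00000165891) on chromosome 12 from 77021248 to 77065569, both reverse. So are E2F8 (ENSG00000129173) on chromosome 11 from 19224063 to 19241620 and TFDP2 (ENSG00000114126) on chromosome 3 from 141944428 to 142149544. E2F5 shares 997 exonic bases, 16.6% of its exons, with RBIS on the opposite strand. Whether strand was used in counting is not given in the sources used here, so E2F5 counts are uncertain to that extent. E2F8 shares 7 bases with the antisense RNA CSRP3-AS1, and the other 8 genes share no exon with another gene. The processed pseudogenes of the family had no reads apart from E2F3P2, with 0 to 7.

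Reads in genes numbered 12555908 in the smallest library and 16712174 in the largest, so a floor of 3 counts corresponded to 0.180 to 0.239 CPM. For ratios, counts were scaled by the total in genes, a pseudocount of 1 scaled count was added, and a 95% Poisson interval was attached. Calls of higher or lower were made for genes that differed by at least 2-fold with an interval that excluded a ratio of 1. With 1 library per condition there was no replicate check and no p-value, and all intervals cover counting error only. The departure from additivity is the log2 ratio of combination to untreated less those of the single drugs. Its spread over genes of like abundance, which holds noise and drug interaction, gave an upper bound on the standard deviation of a log2 ratio. The bound is for a typical gene of that abundance and is not a replicate spread of any named gene. A batch shared by the libraries with a drug would cancel out of it. The bound was 0.62 for genes at 1 to 5 CPM, 0.37 at 5 to 20 CPM, 0.26 at 20 to 100 CPM and 0.28 above. The line's markers VIM, CD44 and KRT18 were at 162.3 CPM or more in every library, whereas EPCAM had 5 to 16 reads. ESR1 had 4 to 16 reads and PGR 0 to 3, and ERBB2 had 1628 to 1831. Of 6 markers of leukocytes, endothelium and fat, CD3E had no read in any library and only PTPRC and PECAM1 exceeded 23 reads. Their summed level was 28.0, 55.2, 35.0 and 31.7 CPM in the untreated, palbociclib, indisulam and combination libraries, of which PECAM1 made up 40.9 CPM under palbociclib; the part of this in the results was not tested.

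E2F genes are themselves textbook E2F targets, so their promoters were searched for the E2F words TTTCCCGC, TTTCGCGC, TTTGCCGC and TTTGGCGC on both strands. The window ran from 250 bases before to 50 bases after the start in RefSeq (GRCh38.p14). A promoter was listed for 8 of the 10 genes, all but E2F5 and E2F8. An E2F word was found in 4 of the 8, E2F1, E2F2, E2F3 and TFDP1, whereas 3.99% of the 27305 genes with a promoter hold one. The windows listed for E2F4, E2F6, E2F7 and TFDP2 hold none of these words. The 100 bases just before the start of the 3 activators and of E2F7 are shown on the gene's own strand, since these 4 genes carry the called increases described next. Capitals mark an E2F word or the shorter TTTCGCG, which is the beginning of TTTCGCGC. In E2F1 the first capital run is TTTCGCG overlapping the reverse complement of TTTGCCGC. The stretches are chr20:33686386-33686485 (reverse) for E2F1, chr1:23531234-23531333 (reverse) for E2F2, chr6:20401779-20401878 (forward) for E2F3 and chr12:77065570-77065669 (reverse) for E2F7.
E2F1: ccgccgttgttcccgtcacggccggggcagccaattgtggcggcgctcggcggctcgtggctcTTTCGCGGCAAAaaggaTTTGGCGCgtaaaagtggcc
E2F2: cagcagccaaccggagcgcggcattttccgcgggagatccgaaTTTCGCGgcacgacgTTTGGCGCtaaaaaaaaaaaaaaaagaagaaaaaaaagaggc
E2F3: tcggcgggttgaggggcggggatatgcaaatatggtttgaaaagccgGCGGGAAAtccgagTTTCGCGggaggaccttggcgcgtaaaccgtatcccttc
E2F7: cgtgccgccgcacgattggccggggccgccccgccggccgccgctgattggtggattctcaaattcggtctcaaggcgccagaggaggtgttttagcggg
In each activator all the words lie within 57 bases of the start, whereas the word in TFDP1 begins 120 bases before it. These are the words at the first E2F3 start listed, and the window of its second start holds none. A match describes the letters only and is not a measured binding site.

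Levels were compared between genes per kilobase of annotated exon (CPM per kb). TFDP1, the main DP partner, was highest in every library at 20.02 to 27.17 CPM per kb, and E2F4 came next at 15.9 to 19.9. TFDP2 was lowest throughout, at 0.146 to 0.232. In untreated cells E2F3 (3.51 CPM per kb), E2F6 (2.86), E2F1 (2.28) and E2F5 (1.82) followed E2F4 in that order, each with an interval that overlapped the next. E2F7 (0.924), E2F8 (0.636) and E2F2 (0.408) came after them and also overlapped in sequence. In the combination library the order after E2F4 was E2F3 (8.12), E2F1 (7.02), E2F6 (4.80) and E2F7 (4.63), so that E2F7 and E2F6 were not separable, and E2F5 was well below at 1.44. The place of E2F5 depends on the length used. Its exons span 5999 bases in union but 1964 in its main transcript (MANE Select), and with the latter it was the third highest in the untreated and indisulam libraries.

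**Figure D1:**
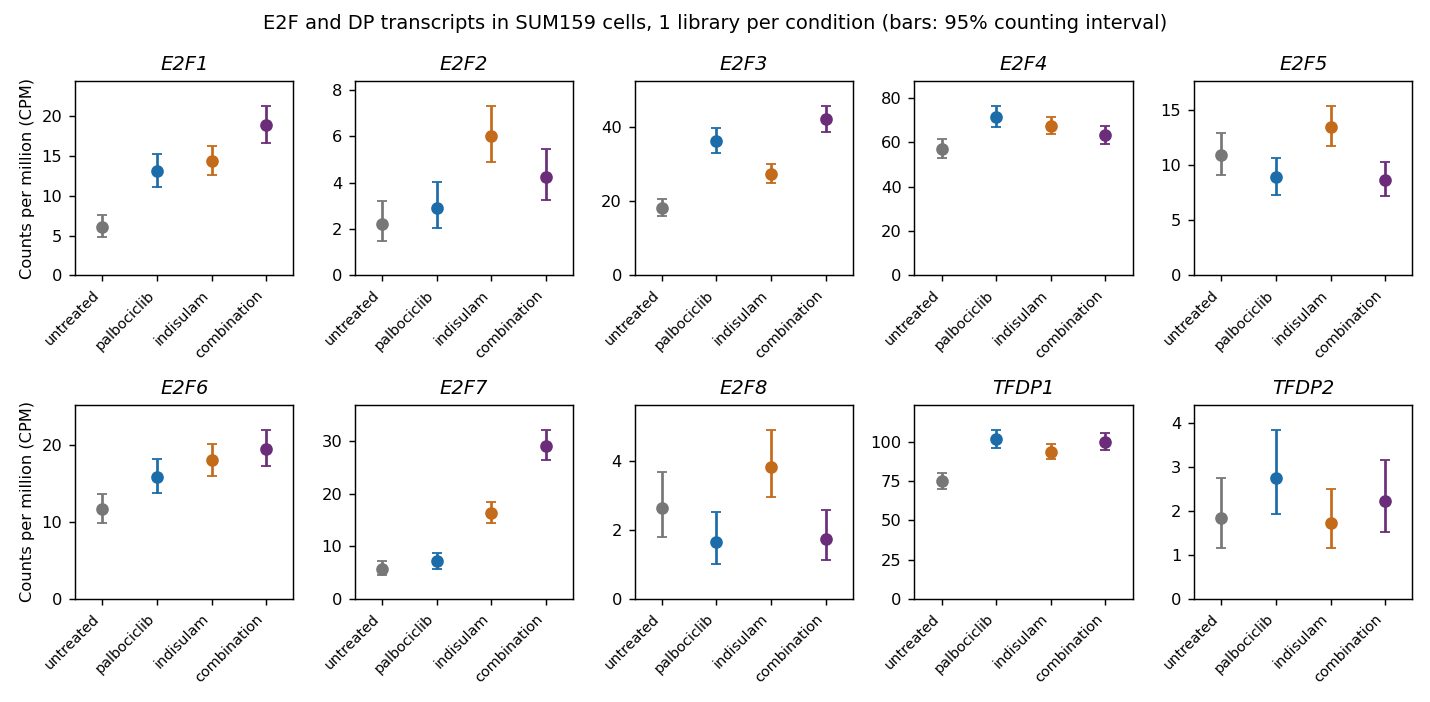
CPM (linear axis from 0, its own scale in each panel) of the 10 genes in the untreated, palbociclib, indisulam and combination libraries, with points for single libraries and bars for the 95% counting interval. E2F1 and E2F3 were above untreated in all 3 treated libraries, E2F7 was highest in the combination at 29.1 CPM, and E2F8 was low in both libraries that received palbociclib.

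Among the activators, E2F1, which drives entry into S phase and can also induce apoptosis genes, had 77 reads untreated, 166 with palbociclib, 240 with indisulam and 271 with the combination. These are 6.13, 13.1, 14.4 and 18.9 CPM, so each treated library was higher than the untreated one, with no overlap of counting intervals. The log2 ratio was 1.08 (95% interval 0.70 to 1.47) for palbociclib against untreated, a 2.12-fold difference and 2.95 times the bound on the spread. When palbociclib was added to indisulam the log2 ratio was 0.39 (0.14 to 0.64) and was not called. E2F1 was called higher with indisulam at 1.22 (0.85 to 1.59) and with the combination at 1.61 (1.25 to 1.97).

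E2F3, an activator needed for normal proliferation, had 229, 460, 457 and 605 reads in the same order, or 18.2, 36.2, 27.4 and 42.1 CPM. Both libraries with palbociclib were above both without it. The log2 ratio of palbociclib to untreated was 0.99 (0.76 to 1.22), which is 1.98-fold and just short of the 2-fold threshold, so that it was called under 4 other scalings of the libraries. With palbociclib added to indisulam it was 0.62 (0.45 to 0.80). Transcripts of E2F3 are counted together, so the a and b forms, which start at different promoters, could not be separated.

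E2F2, the least abundant activator, had 28, 37, 100 and 61 reads, or 2.23, 2.92, 5.98 and 4.25 CPM. It was highest with indisulam alone, where the log2 ratio to untreated was 1.40 (0.80 to 1.99). For palbociclib the log2 ratio was 0.38 (-0.32 to 1.07) without indisulam and -0.49 (-0.94 to -0.03) with it, neither of them called. At this depth the E2F2 ratios carry wide intervals and lie within the bound on the spread for palbociclib.

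E2F4, the most abundant E2F and the member that joins RBL1 or RBL2 in resting cells, had 719, 907, 1129 and 910 reads, or 57.3, 71.5, 67.6 and 63.4 CPM. Its levels spanned a narrow range, and the largest log2 ratio was 0.32 (0.18 to 0.46) for palbociclib against untreated. E2F5, which binds RBL2 above all, had 137, 113, 225 and 124 reads, or 10.9, 8.90, 13.5 and 8.64 CPM. Both palbociclib libraries were below both libraries without it, with log2 ratios of -0.29 (-0.65 to 0.07) to untreated and -0.64 (-0.95 to -0.32) to indisulam. E2F6, which acts within a Polycomb-type complex, had 146, 201, 301 and 280 reads, or 11.6, 15.8, 18.0 and 19.5 CPM. It was lowest untreated. Palbociclib stood above that level by a log2 ratio of 0.44 (0.14 to 0.75), indisulam by 0.63 (0.34 to 0.91) and both drugs together by 0.74 (0.45 to 1.03). None of these 3 genes was called in any comparison.

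The atypical members parted. E2F7 had 73, 91, 272 and 418 reads, or 5.81, 7.17, 16.3 and 29.1 CPM, so that both libraries with indisulam were well above both without it. Palbociclib alone gave a log2 ratio of 0.30 (-0.14 to 0.74), which was not separable from 0, and palbociclib added to indisulam gave 0.84 (0.62 to 1.06). Indisulam gave 1.47 (1.10 to 1.85) alone and 2.01 (1.69 to 2.34) on top of palbociclib, a 4.03-fold difference and 5.47 times the bound on the spread. Of the 10 genes, E2F7 stood farthest above untreated in the combination library, at 2.31 (1.95 to 2.67) or 4.96-fold.

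E2F8, the other atypical repressor, had 33, 21, 64 and 25 reads, or 2.63, 1.66, 3.83 and 1.74 CPM. It was lower in the palbociclib library than in the untreated one and lower in the combination than with indisulam. The log2 ratios were -0.65 (-1.42 to 0.13) and -1.11 (-1.76 to -0.45), and only the second was called. At 21 to 64 reads, E2F8 is near the low end of what these libraries resolve, and the call rests on 25 against 64 reads. The per-length ratio of E2F7 to E2F8 within a library was taken with the pseudocount of 1 scaled count added to each gene. It was 1.43 untreated, 2.76 with palbociclib, 2.75 with indisulam and 10.6 with the combination. The log2 of this ratio was 1.94 (1.26 to 2.62) higher in the combination than with indisulam, and 0.94 (0.07 to 1.82) higher with palbociclib than untreated.

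TFDP1 had 941, 1291, 1563 and 1438 reads, or 74.9, 101.7, 93.5 and 100.1 CPM. All treated libraries were above untreated, by 0.44 (0.32 to 0.56) on the log2 scale with palbociclib and by 0.32 (0.20 to 0.44) with indisulam, but not by 2-fold. With palbociclib added to indisulam the log2 ratio was 0.10 (-0.00 to 0.20), which was not separable from 0. TFDP2, the second DP partner, had 23, 35, 29 and 32 reads, or 1.83, 2.76, 1.74 and 2.23 CPM, and its counting intervals overlapped among all 4 libraries.

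Counted over the 10 genes, 1 was called higher (E2F1) and 0 lower in palbociclib against untreated, where 5.85% of all tested genes were called higher and 4.89% lower. The members' median log2 ratio was 0.41 and that of all tested genes -0.02, and 5 of the 10 had an interval above 0. The combination against indisulam, which estimates palbociclib from libraries that the first comparison did not use, had 0 higher and 1 lower (E2F8), against 5.04% and 3.15% of all genes. There the median was 0.11 and that of all genes -0.01, with 3 intervals above 0 (E2F1, E2F3 and E2F7) and 3 below (E2F2, E2F5 and E2F8). The share of all tested genes whose interval excludes 0 was not computed, so these interval counts have no background beside them. Indisulam against untreated had 3 higher (E2F1, E2F2 and E2F7) and 0 lower, against 8.39% and 6.69%, with a median of 0.56 beside 0.06 for all genes. The combination against palbociclib had 1 higher (E2F7) and 0 lower, against 9.56% and 7.38%, with medians of 0.14 and 0.07. The combination against untreated had 3 higher (E2F1, E2F3 and E2F7) and 0 lower, against 12.9% and 10.5%, with medians of 0.58 and 0.05. Comparisons that share a library are given side by side and are not independent. For palbociclib, 1 call among 10 genes is near the background share in both estimates.

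**Figure D2:**
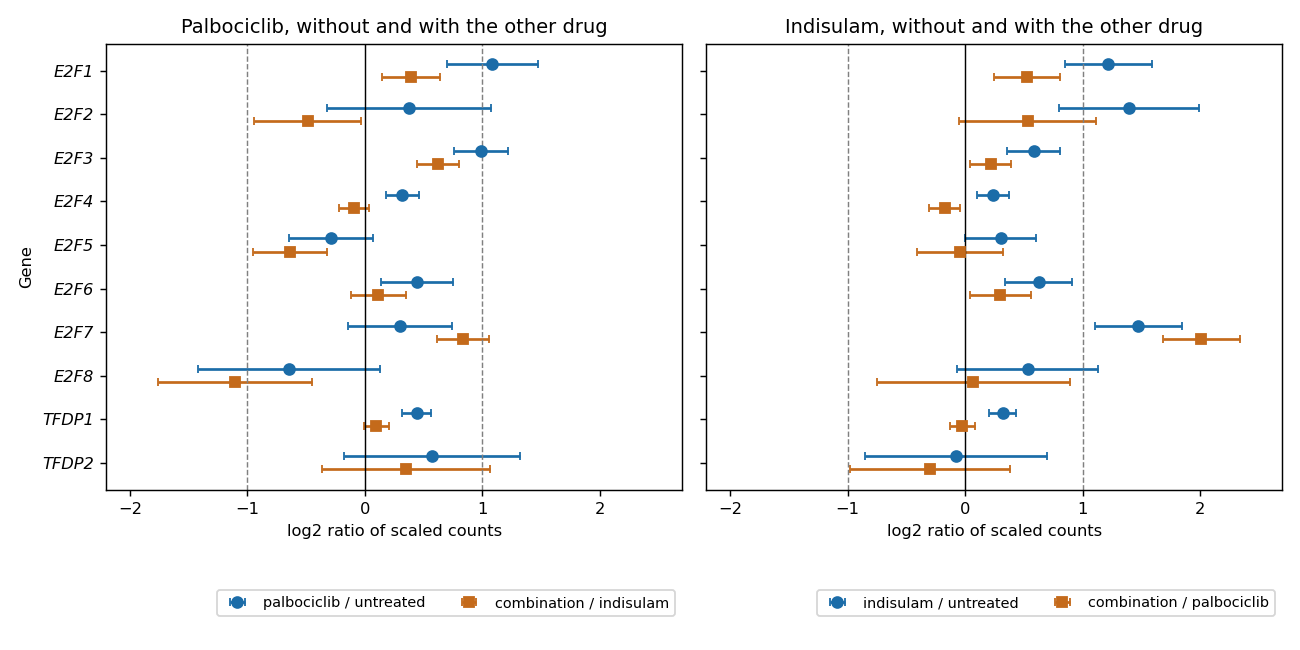
Log2 ratio of scaled counts (horizontal axis) for each gene, with palbociclib on the left and indisulam on the right, circles without and squares with the other drug, bars for the 95% counting interval and dashed lines at 2-fold. E2F1 and E2F3 lie to the right in both palbociclib estimates, E2F8 lies to the left in both, and E2F7 has the highest indisulam ratios at 1.47 and 2.01.

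To set activators against repressors, CPM per kb were summed within each class, and ratios of classes were taken inside a library. For these ratios a pseudocount of 1 scaled count was added to each gene, and library scaling enters them only through it. They can therefore differ slightly from quotients of the sums printed here. The activators summed to 6.20 CPM per kb untreated, 12.4 with palbociclib, 11.7 with indisulam and 15.9 with the combination. E2F4 and E2F5 together stood at 17.7, 21.4, 21.0 and 19.1, and the atypical pair at 1.56, 1.54, 3.51 and 5.05. The ratio of activators to E2F4 and E2F5 was 0.352 untreated, 0.581 with palbociclib, 0.558 with indisulam and 0.836 with the combination. On the log2 scale it was 0.72 (0.49 to 0.96) higher with palbociclib than untreated and 0.58 (0.40 to 0.77) higher when palbociclib was added to indisulam. For indisulam the same differences were 0.67 (0.44 to 0.90) and 0.52 (0.33 to 0.72).

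The ratio of the atypical pair to the activators was 0.254 untreated, 0.126 with palbociclib, 0.301 with indisulam and 0.318 with the combination. It was therefore lowest with palbociclib alone, by -1.01 (-1.44 to -0.58) on the log2 scale against untreated, whereas the combination and indisulam libraries differed by 0.08 (-0.17 to 0.33). Adding indisulam to palbociclib went with a difference of 1.33 (1.00 to 1.67). The combination differed from untreated by 0.32 (-0.04 to 0.68), and this value took the opposite sign, -0.37, when each gene was given equal weight in place of its abundance. As a share of the summed E2F1 to E2F8 level, the activators went from 21.9% untreated to 31.6% with palbociclib and 35.5% with the combination. E2F4 and E2F5 went from 62.5% to 54.5% and 42.5%, and the atypical pair from 5.50% to 3.93% and 11.3%. With main transcript lengths the activator shares were 14.3%, 21.9% and 26.0%, in the same order. Those of E2F4 and E2F5 were then 73.7%, 66.6% and 55.3%.

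**Figure D3:**
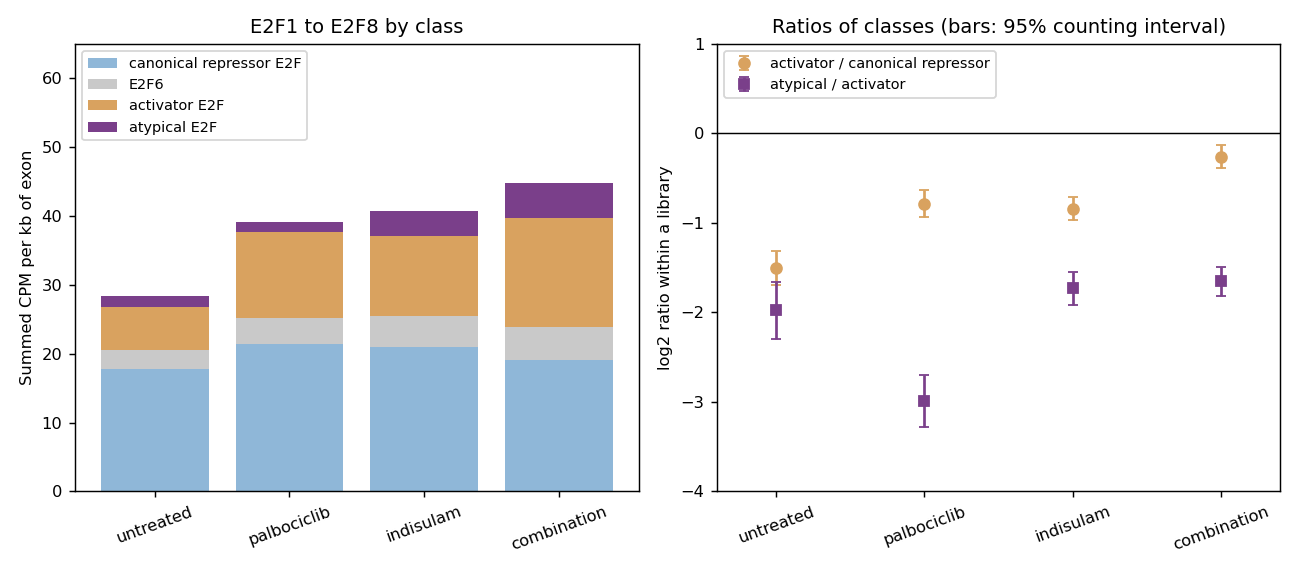
Left, summed CPM per kb of exon of the E2F classes stacked for each library (axis from 0). Right, log2 ratio within a library of activators to E2F4 and E2F5 (circles) and of the atypical pair to the activators (squares), with 95% counting intervals; the circles are lowest untreated and highest in the combination, and the squares are lowest with palbociclib.

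The combination was also compared with the sum of the single-drug log2 ratios. No member departed from additivity by 2-fold with an interval that excluded 0, where 3.93% of all tested genes did so upward and 3.84% downward. The departure was below 0 for 9 of the 10 genes, with a median of -0.36 beside 0.01 for all tested genes. The interval lay below 0 for 5 genes. The shares of all tested genes on that side were not computed. All 10 departures come from the same 4 libraries, so their signs are not independent of one another. E2F1 departed by -0.69 (-1.15 to -0.23), E2F4 by -0.41 (-0.60 to -0.22) and E2F2 by -0.86 (-1.70 to -0.03). E2F3 departed by -0.37 (-0.65 to -0.08) and TFDP1 by -0.34 (-0.50 to -0.18). E2F7 was the exception, at 0.54 (0.04 to 1.03). The spread of this quantity over genes of like abundance was 0.88 for E2F2 and 0.52 for E2F1 and E2F7. It was 0.37 for E2F3, E2F4 and TFDP1, so all of these genes lie close to it.

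Genes that control E2F activity were read from lists of known members. Of all tested genes, 5.85% were called higher and 4.89% lower with palbociclib, and 5.04% and 3.15% when it was added to indisulam. Of the pocket proteins none was called in any of the 5 comparisons. RB1 had 540, 503, 833 and 641 reads in the untreated, palbociclib, indisulam and combination libraries. RBL1, itself an E2F target, had 95, 147, 163 and 190 reads and a log2 ratio of 0.61 (0.24 to 0.98) with palbociclib. RBL2 had 2034, 1536, 1530 and 1349, highest in the untreated library. Of 9 upstream cyclins and CDKs, 3 were called higher with palbociclib (CCNE1, CCND1 and CCND2) and 1 lower (CCNA2), and 3 higher and 0 lower when it was added to indisulam. CCNE1, the cyclin E that activates CDK2, had 44, 186, 88 and 211 reads, with log2 ratios of 2.04 (1.57 to 2.51) without indisulam and 1.47 (1.11 to 1.82) with it. Of 7 CDK inhibitor genes 5 passed the filter, and 0 were called higher and 2 lower with palbociclib. CDKN2D, which codes for an inhibitor of CDK4 and CDK6, was at -1.03 (-1.496 to -0.563) and was not called in the other comparisons. CDKN1C, which codes for the inhibitor p57 and was named after its values were seen, had 66, 13, 101 and 27 reads. It was called lower with palbociclib at -2.28 (-3.12 to -1.45), with palbociclib added to indisulam at -1.65 (-2.25 to -1.04), and in the combination against untreated at -1.45.

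The MuvB core joins E2F4 and a pocket protein in a repressor complex of resting cells, and joins MYBL2 and FOXM1 on mitotic genes when cells cycle. Of 8 genes of this group, palbociclib called LIN9 (54, 138, 152 and 173 reads) and MYBL1 (114, 291, 145 and 427) higher and FOXM1 (743, 252, 895 and 543) lower. Of all tested genes it called 5.85% higher and 4.89% lower. MYBL2, with 190, 121, 394 and 254 reads, had a log2 ratio of -0.66 (-0.99 to -0.33) and was not called. Of 10 partners of E2F6, none was called for palbociclib with or without indisulam, and L3MBTL2 had the highest palbociclib ratio at 0.74 (0.50 to 0.98). Of 5 germline genes repressed by E2F6 only STAG3 passed the filter, with 41, 39, 79 and 37 reads, and it was not called. Of 4 genes for degradation of E2F proteins, palbociclib called CCNF, the cyclin F that targets activator E2Fs, and CDC20 lower, at -1.24 (-1.56 to -0.92) and -1.68 (-1.84 to -1.51). When it was added to indisulam none of the 4 was called, with CCNF at -0.74 (-0.945 to -0.538) and CDC20 at -0.49 (-0.61 to -0.36).

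Target genes of E2F at the G1/S boundary and of MuvB complexes at G2/M were read in the same way. Of 34 G1/S genes, 4 were called higher and 3 lower with palbociclib, with a median log2 ratio of 0.31 beside -0.02 for all tested genes. The shares called over all tested genes were 5.85% higher and 4.89% lower. CCNE1 and FEN1, a flap endonuclease of DNA replication, were higher, FEN1 by 1.28 (1.05 to 1.52). TK1 (thymidine kinase) and CDT1 (a replication licensing factor) were lower, at -1.37 (-1.57 to -1.17) and -1.34 (-1.64 to -1.04). Of 24 G2/M genes, 0 were called higher and 15 lower with palbociclib, with a median of -1.21. KIF20A, a kinesin of cytokinesis, had 919, 185, 1412 and 554 reads and a log2 ratio of -2.32 (-2.55 to -2.10). BIRC5 and PLK1, which act in mitosis, and CCNA2, which is also counted among the upstream cyclins, were at -2.11, -2.10 and -2.01. In bulk RNA, fewer cells in G2/M and less RNA per cell cannot be told apart.

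When palbociclib was added to indisulam, 1 G1/S gene was called higher (CCNE1) and 1 lower (CDT1, at -1.65), and 0 G2/M genes were called higher and 2 lower, with medians of 0.21 and -0.49. Indisulam alone called 3 G1/S genes higher and 0 lower and 1 G2/M gene higher and 0 lower, with medians of 0.59 and 0.43 beside 0.06 for all genes. The combination against palbociclib, which shares the palbociclib library with the first comparison, called 15 of the 24 G2/M genes higher and 0 lower, with a median of 1.14, and 5 G1/S genes higher and 1 lower. The combination against untreated called 11 G1/S genes higher and 0 lower, and 1 G2/M gene higher and 2 lower. Of all tested genes, 5.04% were called higher and 3.15% lower in the first of these comparisons and 8.39% and 6.69% with indisulam alone. The shares were 9.56% and 7.38% for the combination against palbociclib and 12.9% and 10.5% against untreated. The higher calls with indisulam alone are near the share for all genes. The promoters of the lists differ in sequence as well. An E2F word lies in 18 of the 30 G1/S promoters listed and in 2 of the 19 G2/M promoters. The word TTTGAA, the cell cycle homology region of MuvB target promoters, lies in 1 and 13 of them, against 18.2% of all genes with a promoter. The lists were drawn up as known targets of E2F and of this region. The difference in words therefore follows from that choice and is not a result of these data.

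**Figure D4:**
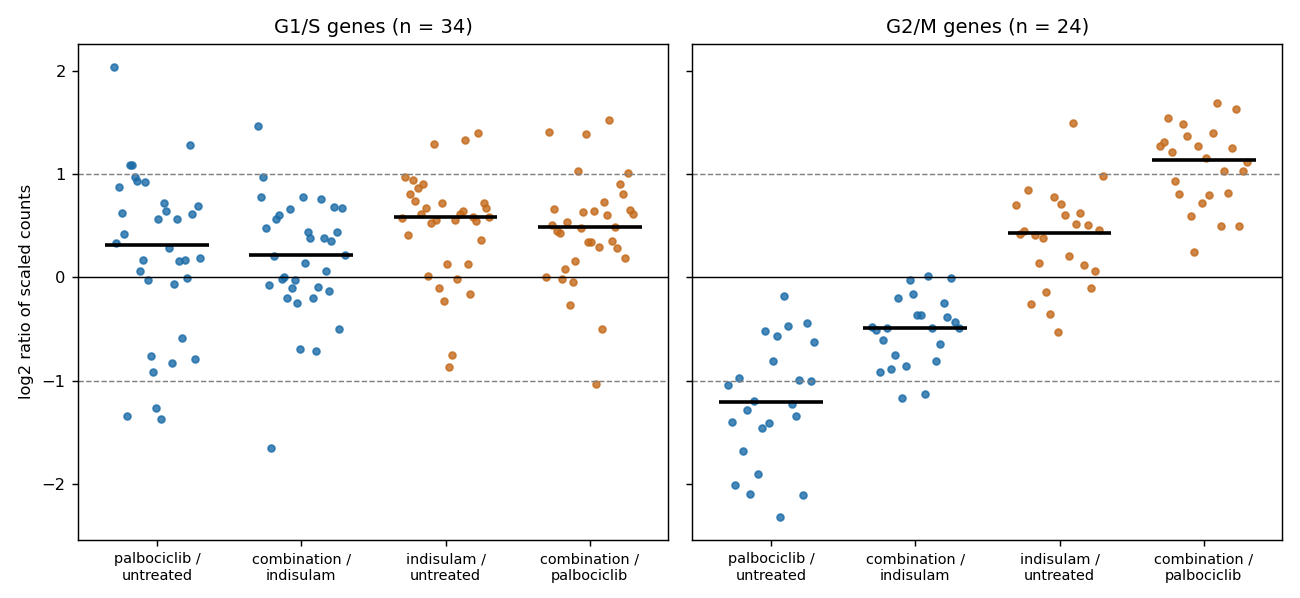
Log2 ratio of scaled counts (vertical axis) of 34 G1/S genes on the left and 24 G2/M genes on the right in 4 comparisons, 1 point a gene, with black bars at the median and dashed lines at 2-fold. With palbociclib alone the G2/M genes center on -1.21 and the G1/S genes spread from CDT1 and TK1 below to CCNE1 above.

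Of 10 apoptosis genes known as E2F1 targets, palbociclib called 0 higher and 1 lower, the p53 relative TP73 (59, 15, 19 and 3 reads, named after its values were seen). Indisulam against untreated called 2 higher (HRK and PMAIP1) and 1 lower (TP73). Over all tested genes, palbociclib called 5.85% higher and 4.89% lower, and indisulam 8.39% and 6.69%, so 1 call among these 10 is near background. HRK, which encodes a BH3-only protein and was also named after its values were seen, had 3, 3, 81 and 128 reads. Its log2 ratio of indisulam to untreated was 3.99 (2.52 to 5.46), taken against 3 reads. PMAIP1, which encodes the BH3-only protein NOXA, had 154, 89, 690 and 474 reads. Its log2 ratio was -0.80 (-1.18 to -0.43) for palbociclib, not called, and 1.75 (1.49 to 2.00) for indisulam against untreated. PPP1R13B, a p53 cofactor, was at 0.74 (0.44 to 1.05) with palbociclib. APAF1 and BBC3 were at -0.40 and -0.30 with palbociclib alone. Palbociclib added to indisulam called 0 higher and 2 lower, TP73 and BBC3, against 5.04% and 3.15% of all tested genes. TP73 was then at -2.11 (-3.65 to -0.56), taken at 19 and 3 reads, and BBC3 at -1.195 (-1.597 to -0.79).

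The genes with the pattern over the 4 libraries most like that of a member were found among 8037 genes at 20 CPM or more, by Euclidean distance between centered log2 scaled counts. With 4 points this is a description only. For E2F1 they were DDX20 (distance 0.118), COL12A1 and TSTD2, and DDX20 had 179, 397, 551 and 579 reads. For E2F3 they were TRNP1 (0.0831), SLC25A13 and TASOR2. E2F7 had the most distant neighbors, ISG15 (0.203), PFKFB4 (0.211) and C12orf75 (0.230), and ISG15 had 172, 249, 640 and 949 reads. For E2F4, E2F5, E2F6 and TFDP1 the nearest were MARK2 (0.0222), RPUSD4 (0.0187), NOP58 (0.0267) and NOP14 (0.0202). E2F2, E2F8 and TFDP2, under 5 CPM, were not searched.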

How the data were processed

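Strand-specific poly(A) libraries were made from SUM159 cells, 1 per condition. The authors deposited raw read counts for each Ensembl gene. The submitters' processing notes name TopHat2 2.1, HTSeq and GRCh38. The annotation release and strand setting are not given in the sources used here, and the labels name Trizol for the extraction whereas the methods of the study name columns. Reads in no gene (0.61% to 0.69% of the reads considered), in several genes (2.41% to 2.63%) or at several places in the genome (6.46% to 6.84%) were tallied by the authors apart from the genes and were left out, so genes with near-identical copies are undercounted.

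Counts were divided by the total in genes relative to the mean total. Log2 ratios used a pseudocount of 1 scaled count and a Poisson interval with the pseudocount in its variance, and the 14269 genes at a mean of at least 1 CPM were tested. Levels carry exact Poisson intervals. Scripts ran in Python 3.11.15 with pandas 2.3.3 and scipy 1.17.1, and edgeR 4.0.16 and DESeq2 1.42.0 in R 4.3.3 gave only alternative scaling factors. No model was fitted, because no condition had a replicate. The calculation was tested on simulated Poisson counts, which hold counting error only. That checks the arithmetic and not the variation between replicate libraries. Known changes were placed only in genes with higher mean counts than E2F8 and TFDP2. The members and gene lists were chosen with earlier results of these data known. From each list at most 4 genes at a mean of 5 CPM or more are named, those with the largest absolute palbociclib ratio, with RB1, RBL1, CCNE1, MYBL2 and FOXM1 added. Genes outside this rule are named where a count of calls was small. Promoter sequences are from RefSeq, and symbols were found for 14111 tested genes.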

Additional observations from a re-analysis of the deposited data

Results flagged for a closer look

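For 4 genes the log2 ratio of a drug had opposite signs without and with the other drug. This difference is by construction the departure from additivity described above, so it is not a further result. It was not tested, since each estimate comes from 1 pair of libraries. For palbociclib, E2F2 went from 0.38 alone to -0.49 with indisulam, a difference of -0.86 (-1.70 to -0.03). E2F4 went from 0.32 to -0.09, a difference of -0.41 (-0.60 to -0.22). For indisulam, E2F4 went from 0.24 alone to -0.17 with palbociclib, where the difference is necessarily the same. E2F5 went from 0.30 to -0.04, a difference of -0.35 (-0.82 to 0.13). TFDP1 went from 0.32 to -0.02, a difference of -0.34 (-0.50 to -0.18). The counting intervals of the with-drug estimates of E2F5 and TFDP1 for indisulam, and of E2F4 for palbociclib, include 0, as do those of E2F2 for palbociclib alone and of E2F5 for indisulam alone.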

How the results depend on the processing

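No paired analysis was possible because each condition has 1 library and the labels give no replicate numbers, and for the same reason no library could be left out. For palbociclib against untreated, 2 members in place of 1 were called with TMM, upper quartile and median-of-ratios factors, with totals that leave out mitochondrially encoded genes and at a 1.5-fold threshold, where E2F3 joins E2F1. For the combination against indisulam, 0 were called at a mean of at least 5 CPM or with a pseudocount of 5, where E2F8 is lost, and 4 at 1.5-fold, 2 higher and 2 lower. For the combination against untreated, 5 were called at 1.5-fold. The share of all tested genes called at 1.5-fold was not computed, so the counts at that threshold have no background beside them. The combination's atypical to activator log2 ratio against untreated was -0.37 with mean log2 counts per class, where E2F8 weighs as much as E2F7. The other counts stayed within 1.5 times the reported value, and the other atypical to activator ratios stayed within the counting interval. A main transcript length, an alternative added after seeing the data, was among the settings for this ratio. Within that interval, its value for indisulam against untreated changed sign, from 0.25 to -0.06. This happened with mean log2 counts and with E2F1 as the lone activator. The ratio of activators to E2F4 and E2F5 was not rerun under the alternatives. Its level depends on length: with main transcript lengths the untreated activators summed to 6.33 CPM per kb beside 32.7 for E2F4 and E2F5. In the combination these sums were 16.2 and 34.4. Of 300 values of single members under alternatives, all 300 lay within the reported counting interval and 1 changed sign, E2F8 in the combination against palbociclib (0.07 to -0.001 with TMM factors, not called). Members under 5 CPM (E2F2, E2F8 and TFDP2) are limited by depth.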
